A study of Homo sapiens with 8 samples.

Results

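Expression of 45 genes of TGF-beta and BMP signalling was examined in LK2 cells, a line from human squamous carcinoma of the lung. In these cells DNp63, a p63 protein that lacks the N-terminal activation domain of the full-length factor, was expressed from lentiviral vectors. The genes were taken from a list of ligands, receptors, SMADs, antagonists and targets, and all 45 had a row in the table of 26760 genes. RNA sequencing covered 8 libraries in 4 groups of 2. GFP cells carried pLEX_306-GFP (replicate 1) or pLEX_307-GFP (replicate 2), and constitutive DNp63 cells carried pLEX_306-DNp63 or pLEX_307-DNp63 in the same order. The inducible cells carried pLIX_403-DNp63 in both replicates and either received doxycycline at 2 µg/ml for 6 days (induced) or did not (uninduced). The labels do not say whether the cells of a vector are a clone or a pool, nor whether the replicates of the inducible cells are separate cultures. The p-values thus measure the spread between these libraries. In the GFP and constitutive groups that spread includes the difference between pLEX_306 and pLEX_307, and in the inducible groups it may be technical. No library of doxycycline-treated cells without a DNp63 vector was analysed here, so effects of the drug and of induced DNp63 cannot be told apart.

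TP63 counts checked the labels: levels were 0.738 and 1.90 CPM (counts scaled for library size) with GFP, 1845 and 3806 CPM in constitutive DNp63 cells, 12.7 and 14.8 CPM uninduced and 412 and 421 CPM induced. Library totals ranged from 2758158 to 10372248 counts, so that 3 counts in a library stand for 0.291 to 1.11 CPM. Of the squamous keratins used to check the cell line, KRT14 had no count in any library and KRT5 had 0 to 3 counts in each control library, while the simple-epithelial keratin KRT8 lay between 1652 and 3753 CPM. In constitutive DNp63 cells KRT5 was at 397 and 18.8 CPM, and KRT6A was at 556 and 394 CPM, against 2.21 and 5.92 CPM in GFP cells, with 23.9 and 26.1 CPM induced. The 11 squamous and epithelial markers summed to 4502 to 4559 CPM in GFP cells, 7947 to 9727 CPM in the constitutive cells, 3525 to 3870 CPM uninduced and 4704 to 4916 CPM induced. That sum includes TP63 itself, so part of its rise is that of the gene carried by the vectors. In constitutive against GFP cells TP63, KRT5, KRT6A, KRT8 and DSG3 lay higher without overlap. SOX2, CDH1 and EPCAM lay lower without overlap, and KRT14, KRT17 and KRT18 did not separate. The 7 fibroblast markers summed to between 8.39 and 30.8 CPM, nearly all of it from COL1A1, with COL3A1 and DCN at 0 in every library. The 4 endothelial markers summed to at most 2.33 CPM, with PECAM1 and CDH5 at 0, and the immune markers to at most 3.70 CPM, with CD3E at 0. The 3 neural markers summed to 331 to 646 CPM in GFP cells, 72.4 to 113 CPM in the constitutive cells, 611 to 660 CPM uninduced and 316 to 387 CPM induced. Most of this was SOX2, which is in both lists, at 277 and 517 CPM in GFP cells and 68.1 and 96.2 CPM in the constitutive cells. SOX2, POU3F2 and NES each lay lower without overlap in both systems. The part of these marker shifts in the results below was not tested. In bulk RNA, fewer cells of a type and less RNA per cell cannot be told apart.

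TGF-beta and BMP ligands are secreted dimers that bring together type I and type II receptor kinases on the cell surface. TGF-beta and activin receptors phosphorylate SMAD2 and SMAD3, BMP receptors phosphorylate SMAD1, SMAD5 and SMAD9, and both sets work in the nucleus with SMAD4. TGF-beta is secreted in a latent complex bound to LTBP proteins and must be released to act, and the pathways switch on their own inhibitors, such as SMAD6, SMAD7 and BAMBI. In epithelial cells TGF-beta is known for arresting growth and for promoting mesenchymal traits, and the ID genes are classical targets of BMP.

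Of the 45 genes, 39 had enough counts to be tested with edgeR's quasi-likelihood test, with p-values adjusted over all 12303 tested genes. Averaged over both systems, each against its own control, 8 rose and 3 fell, which is 28.2% of those tested, beside 5.67% of all tested genes (3.26% higher and 2.41% lower). The genes that rose were TGFB1, ACVR1, SMAD7, BAMBI, FST, LTBP2, LTBP4 and ID2, and those that fell were ID3, ATOH8 and THBS1. In constitutive DNp63 cells against GFP cells 6 rose and 3 fell, beside 8.16% of all tested genes called (4.17% higher and 3.99% lower). The median log2 fold change of the tested genes was 0.32 in the averaged comparison, 0.41 constitutive and 0.43 induced, against medians of −0.01, 0.01 and −0.00 over all tested genes. FST, INHBB, LTBP2 and LTBP4 reached the count minimum in the required 2 libraries only with DNp63 libraries (FST and LTBP4 in 0 control libraries, INHBB and LTBP2 in 1), so their entry into the test depended on being high there. Without these 4 genes, 5 rose and 3 fell of 35 in the averaged comparison, with a median of 0.23, and 3 rose and 3 fell in the constitutive one, with a median of 0.35. The induced median was then 0.27.

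In induced against uninduced cells none of the 39 genes was called by edgeR in the model with 1 spread for all 8 libraries, where 0.284% of all tested genes were called (0.236% higher and 0.0488% lower). An unadjusted p under 0.05 was reached by 9 of them, beside 6.04% of all tested genes, and DESeq2 called 2, ID2 and LTBP4, of 110 genes it called in all. When only the 4 inducible libraries were fitted, edgeR called 13 higher and 2 lower of 37 tested, beside 6.43% of 11991 genes (3.63% higher and 2.8% lower). The 13 were TGFB1, TGFB2, BMP4, BMP7, SMAD6, SMAD7, SMAD9, BAMBI, LTBP3, LTBP4, ID1, ID2 and ATOH8, and the 2 were ID3 and THBS1. A fit on the 4 constitutive libraries alone called 2 of 39, ID3 and ATOH8, both lower, beside 2.36% of 11629 genes (1.65% higher and 0.714% lower). The other constitutive calls of the shared fit, for ACVR1, SMAD7, FST, LTBP2, LTBP4, ID2 and TGFBI, were lost there. Their adjusted p values ran from 0.065 for LTBP4 to 0.117 for ID2. Replicates differed more in the constitutive system: the chi-square of replicate counts over genes, per degree of freedom, was 18.0 with GFP and 25.6 with constitutive DNp63, against 3.91 uninduced and 5.38 induced. Both fits for the inducible system are given for the genes below, the first as the shared fit and the second as the fit on the inducible libraries alone. A shared fit with the replicate number as a block within each system, called the replicate block, is given where it changes a call.

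**Figure D1:**
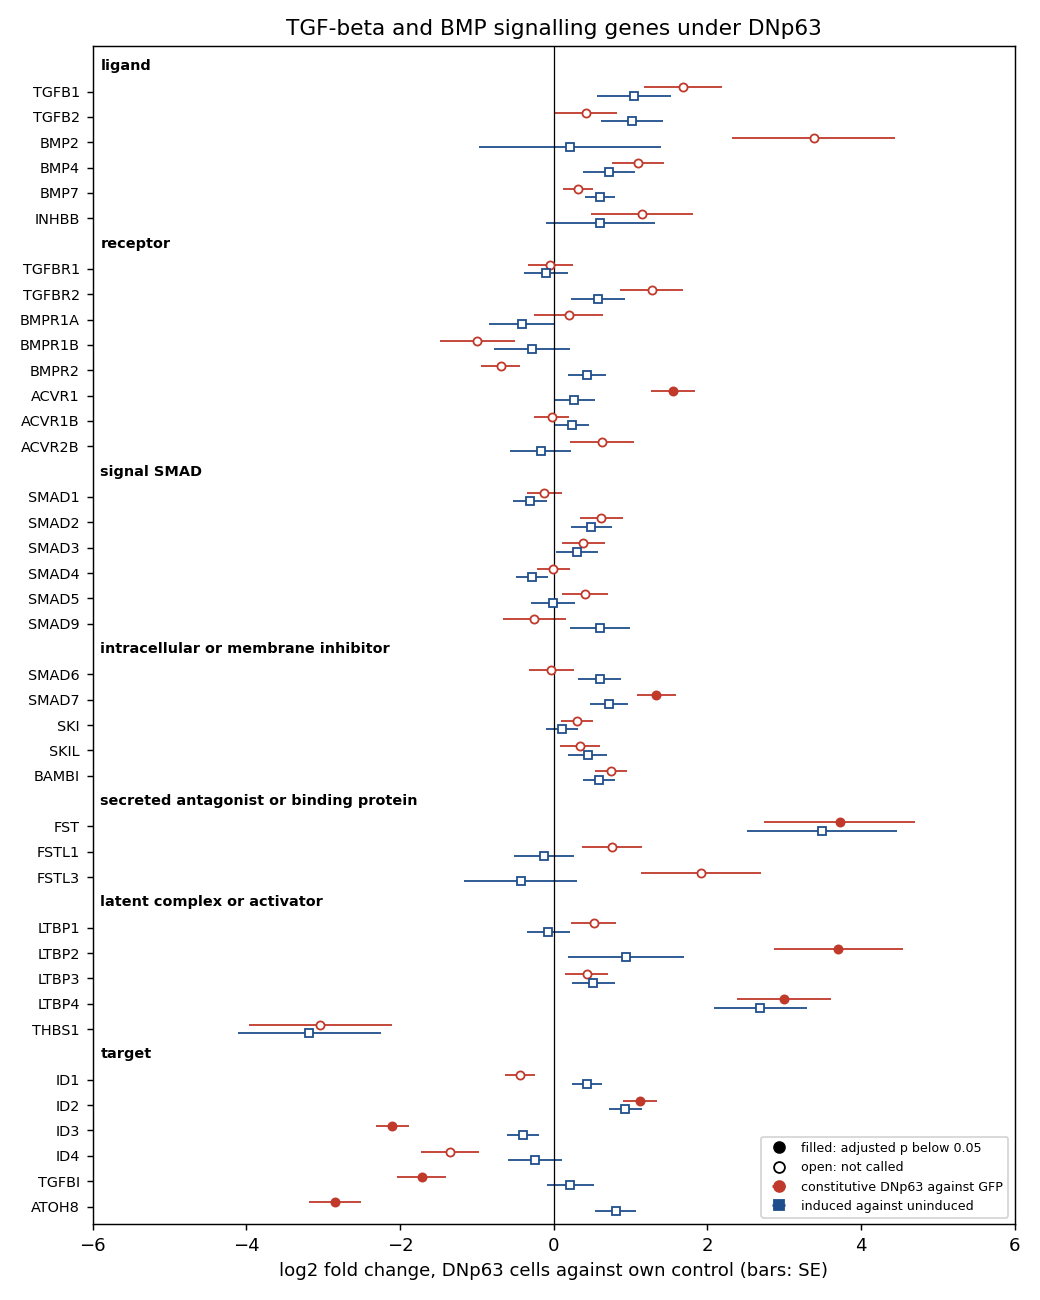
Log2 fold changes of the 39 tested genes, ordered by role. Circles show constitutive DNp63 against GFP and squares induced against uninduced cells, with SE from the shared fit and n = 2 libraries per group. Filled symbols passed an adjusted p of 0.05. The ligands lie to the right of 0 in both systems, THBS1 lies near −3 in both, and ATOH8 lies on opposite sides. The induced SE bars of BMP2 and INHBB reach below 0.

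All 6 tested ligands had positive values in both systems, and TGFB1 was the 1 that passed the test in the averaged comparison. INHBB, 1 of the 6, had needed the DNp63 libraries to enter the test. The induced value of BMP2 was 0.21 ± 1.18, with ratios of 0.205 in replicate 1 and 6.58 in replicate 2. TGFB1, the founding TGF-beta ligand, was at 18.4 and 5.50 CPM in GFP cells, 24.8 and 47.6 CPM in the constitutive cells, 11.3 and 10.7 CPM uninduced, and 28.2 and 16.5 CPM induced. Both DNp63 groups lay above their own controls without overlap. Its averaged log2 fold change was 1.36 ± 0.35 (SE, n = 2 per group; adjusted p = 0.0482). The constitutive value was 1.68 ± 0.51 (adjusted p = 0.0695; 0.0122 with DESeq2, 0.0356 with the replicate block, 0.0144 without GFP replicate 1 and 0.0278 without DNp63 replicate 1). TGFB1 did not pass the averaged comparison without GFP replicate 2, DNp63 replicate 2 or any of the 4 inducible libraries (adjusted p from 0.0802 to 0.251). The 2 GFP libraries differed, so that the ratio of DNp63 to GFP was 1.34 in replicate 1 and 8.66 in replicate 2. Induced cells had 2.04 times the uninduced mean, with an adjusted p of 0.836 in the shared fit and 0.0055 in the fit on the inducible libraries alone.

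TGFB2, a second TGF-beta ligand, separated the groups in the inducible system but not in the constitutive one. It was at 64.5 and 205 CPM in GFP cells and 149 and 215 CPM in the constitutive cells, which overlap, and at 105 and 106 CPM uninduced against 227 and 199 CPM induced. The induced log2 fold change was 1.02 ± 0.40, with an adjusted p of 0.68 in the shared fit and 1.18e-07 in the fit on the inducible libraries alone. The constitutive value of 0.42 ± 0.40 depended on the GFP libraries, at −0.18 without GFP replicate 1 and 1.49 without GFP replicate 2 (adjusted p = 0.0209). The averaged value of 0.72 (adjusted p = 0.195) passed with the replicate block (0.0126) and without GFP replicate 2 (0.00413). TGFB3 had at most 9 counts in a library and was not tested.

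BMP4 and BMP7, ligands of the BMP receptors, were higher in both DNp63 groups without overlap. BMP4 was at 98.8 and 255 CPM in GFP cells, 346 and 414 CPM in the constitutive cells, 132 and 117 CPM uninduced, and 203 and 206 CPM induced. Its averaged log2 fold change of 0.90 ± 0.24 missed the threshold in edgeR's shared fit (adjusted p = 0.0531). It passed with DESeq2 (0.00267), with the replicate block (0.00375), and without GFP replicate 1 (0.019), GFP replicate 2 (0.00121) or DNp63 replicate 1 (0.0397). The constitutive value was 1.09 (adjusted p = 0.0756; 0.0125 with DESeq2, 0.00678 with the block and 0.00277 without GFP replicate 2). BMP7 was at 136 and 188 CPM in GFP cells, 194 and 211 CPM in the constitutive cells, 106 and 101 CPM uninduced, and 155 and 158 CPM induced. The averaged value of BMP7 was 0.46 ± 0.14 (adjusted p = 0.0871; 0.0393 without GFP replicate 2). The induced values were 0.71 ± 0.34 for BMP4 and 0.60 ± 0.20 for BMP7. Neither passed in the shared fit (adjusted p = 0.855 and 0.462). In the fit on the inducible libraries alone, BMP4 had an adjusted p of 3.1e-05 and BMP7 of 0.000485. The difference between systems did not pass for TGFB1, TGFB2, BMP4 or BMP7, with adjusted p values of 0.779, 0.74, 0.814 and 0.751.

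Per kilobase of exon, BMP4 was the highest of the ligands in each group, at 84.1 CPM per kb with GFP and 180 with constitutive DNp63, and 59.3 uninduced and 97.3 induced. BMP7, the next in the GFP, constitutive and uninduced groups, was at 38.4, 48.0 and 24.4 CPM per kb there. It lay at 37.0 CPM per kb induced, below TGFB2 at 42.2. With GFP the next in order were not separated, since TGFB2 spanned 12.8 to 40.6 CPM per kb and BMP7 32.3 to 44.5. BMP2, another BMP ligand, stood out in a single library: it was at 31.1 CPM in DNp63 replicate 1 and at most 4.84 CPM in the other 7. Its constitutive log2 fold change of 3.38 ± 1.06 did not pass in edgeR's shared fit (adjusted p = 0.0773), and passed with DESeq2 (0.00441) and without DNp63 replicate 2 (0.011). INHBA, which encodes an activin subunit, had 0 counts in GFP cells and 47 in the constitutive cells, at least 13.4-fold higher when GFP is set to a floor of 3 counts over the group. Of those 47 counts, 42 were in DNp63 replicate 2, and the induced libraries held 0 and 3. INHBB, another activin subunit gene, was between 0.971 and 7.69 CPM and had an averaged value of 0.88 (adjusted p = 0.37).

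Among 8 tested receptors, ACVR1, a type I receptor for BMPs and activins, was the 1 called, and none was called lower. It was at 11.8 and 9.73 CPM in GFP cells, 25.6 and 36.8 CPM in the constitutive cells, 13.5 and 13.5 CPM uninduced, and 15.8 and 16.7 CPM induced. The constitutive rise of 1.56 ± 0.28 on the log2 scale had an adjusted p of 0.00802, which became 0.0696 without GFP replicate 2. The averaged rise of 0.91 ± 0.19 (adjusted p = 0.0215) was lost without GFP replicate 2 or any of the 4 inducible libraries (0.0806 to 0.127). The induced value was 0.27 ± 0.27 (adjusted p = 0.99, and 0.593 in the fit on the inducible libraries alone), and the difference between systems, −1.29 ± 0.39, did not pass (adjusted p = 0.206).

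TGFBR2, the type II TGF-beta receptor, was at 2.95 and 4.65 CPM in GFP cells, 7.41 and 11.4 CPM in the constitutive cells, 8.84 and 6.80 CPM uninduced, and 12.8 and 10.2 CPM induced. The DNp63 libraries lay above their controls in both systems, and the averaged value of 0.93 ± 0.27 had an adjusted p of 0.0793 (0.0434 with the replicate block and 0.0383 without DNp63 replicate 1). TGFBR1, its type I partner, was between 16.1 and 28.4 CPM in the 8 libraries, with an averaged value of −0.07 (adjusted p = 0.902). The co-receptor TGFBR3 had at most 10 counts in a library and was not tested. BMPR2, the type II BMP receptor, was lower in both constitutive DNp63 libraries (22.8 and 36.0 CPM against 43.1 and 52.2 CPM in GFP cells) and higher in both induced ones (52.8 and 44.6 CPM against 34.6 and 37.8 CPM uninduced). Neither its constitutive value (−0.69; adjusted p = 0.133) nor the difference between systems (1.12; adjusted p = 0.235) passed, and without DNp63 replicate 2 both did (0.0276 and 0.0332). The type I BMP receptors BMPR1A and BMPR1B had averaged values of −0.11 and −0.64 (adjusted p = 0.898 and 0.365), and the activin receptors ACVR1B and ACVR2B 0.11 and 0.23 (0.789 and 0.739). ACVR2A had at most 16 counts in a library and was not tested.

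The 6 SMADs that carry the signal did not pass the test in any contrast of the shared fit. Their averaged log2 values ran from −0.21 for SMAD1 to 0.56 for SMAD2, with adjusted p values of 0.141 or more. Group means of SMAD4, the common partner, were 34.1 ± 1.30 CPM (SD, n = 2) with GFP, 34.0 ± 4.31 with constitutive DNp63, 41.9 ± 0.724 uninduced and 34.5 ± 0.652 induced. SMAD9, a BMP SMAD, was at 38.2 and 32.0 CPM uninduced and 55.4 and 50.9 CPM induced (adjusted p = 0.949 in the shared fit and 0.0117 in the fit on the inducible libraries alone). In constitutive DNp63 cells the SMAD9 libraries disagreed, at 12.5 and 39.1 CPM, on either side of the 26.9 and 35.3 CPM in GFP cells. The constitutive value, −0.25 with all libraries, was 0.31 without DNp63 replicate 1 and −1.32 without DNp63 replicate 2 (adjusted p = 0.0195). The difference between systems was 0.85 (adjusted p = 0.595) and 1.92 without DNp63 replicate 2 (0.0189).

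Of the inhibitors inside the cell or at its membrane, SMAD7 and BAMBI rose in the averaged comparison and SMAD6, SKI and SKIL did not pass. SMAD7, which blocks TGF-beta receptors, was at 22.9 and 36.4 CPM in GFP cells, 84.6 and 67.1 CPM in the constitutive cells, 30.7 and 26.1 CPM uninduced, and 49.2 and 44.0 CPM induced. Every DNp63 library lay above every control library. The rise was 1.34 ± 0.26 constitutive (adjusted p = 0.0106) and 1.03 ± 0.18 averaged (adjusted p = 0.00772), the latter lost without uninduced replicate 2 (0.0673) or induced replicate 1 (0.0712). Induced cells gave 0.72 ± 0.25, with an adjusted p of 0.543 in the shared fit and 0.00409 in the fit on the inducible libraries alone. SMAD6, which mainly restrains BMP signalling, was at 37.2 and 23.9 CPM in GFP cells and 23.9 and 34.8 CPM in the constitutive cells, which overlap. It was at 21.3 and 24.5 CPM uninduced and 38.5 and 30.8 CPM induced, with an induced value of 0.60 ± 0.28 (adjusted p = 0.855 in the shared fit and 0.048 in the fit on the inducible libraries alone).

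BAMBI, a receptor-like protein without a kinase that dampens the signal, was the highest per kilobase of the 5 inhibitors in each group. It was at 682 and 637 CPM in GFP cells, 1321 and 885 CPM in the constitutive cells, 544 and 619 CPM uninduced, and 882 and 871 CPM induced. Again every DNp63 library lay above every control library. The averaged rise was 0.67 ± 0.15 (adjusted p = 0.0252), lost without GFP replicate 2 or any of the 4 inducible libraries (0.0691 to 0.158). The constitutive value was 0.74 ± 0.21 (adjusted p = 0.0543; 0.0185 with DESeq2, 0.0368 with the replicate block and 0.00314 without DNp63 replicate 2) and the induced value 0.59 ± 0.21 (0.554 in the shared fit and 4.54e-05 in the fit on the inducible libraries alone). The corepressors SKI and SKIL had averaged values of 0.21 and 0.39 (adjusted p = 0.507 and 0.273).

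**Figure D2:**
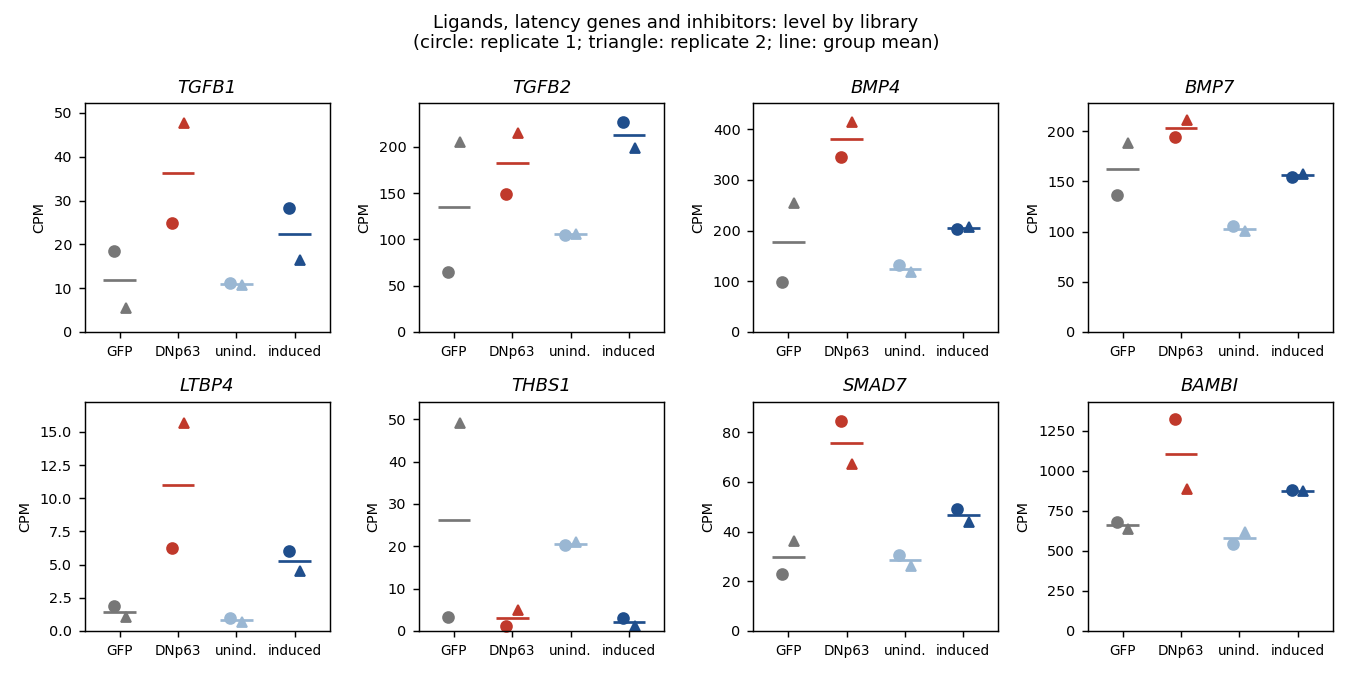
Level of 8 genes in each library, in CPM on linear axes from 0. Circles are replicate 1, triangles replicate 2, and lines the mean of the 2 libraries of a group. SMAD7 and BAMBI are higher in every DNp63 library than in every control library, and THBS1 is low in GFP replicate 1 (3.32 CPM) but not in GFP replicate 2 (49.1 CPM).

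Of the secreted antagonists, FST, which encodes the activin-binding protein follistatin, rose from near absence. It had 0 and 2 counts with GFP, 11 and 22 with constitutive DNp63, 1 and 1 uninduced, and 19 and 5 induced. The ratio of summed counts, scaled for library size, was 14.1 (95% exact interval 3.62 to 122) in the constitutive and 13.9 (3.45 to 121) in the inducible system. These intervals cover counting error only. FST had needed the DNp63 libraries to enter the test. Its induced value of 3.49 ± 0.98 did not pass in the shared fit (adjusted p = 0.309). FST was not among the 37 genes tested in the fit on the inducible libraries alone. FST was called in the averaged comparison (adjusted p = 0.0124), but not without uninduced replicates 1 or 2 or induced replicate 1 (0.072 to 0.123). The constitutive call (adjusted p = 0.0427) was lost with DESeq2 (0.0674) and whichever library was left out (0.0656 to 0.13). FSTL1, a follistatin-like secreted protein, was at 60.7 CPM in DNp63 replicate 1 and between 15.1 and 27.3 CPM in the other 7 libraries. The constitutive FSTL1 value of 0.76 (adjusted p = 0.281) was −0.083 without DNp63 replicate 1 and 1.30 without DNp63 replicate 2 (0.0122). FSTL3, another binder of activin, had an averaged value of 0.74 (adjusted p = 0.518). The BMP antagonists NOG and GREM1 were not tested: NOG had 0 to 3 counts in each library, and GREM1 had no count in any.

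Of the genes of the latent complex, LTBP2 and LTBP4 rose in the averaged comparison, LTBP1 and LTBP3 did not pass, and the activator THBS1 fell. LTBP2 and LTBP4 had needed the DNp63 libraries to enter the test, so their calls are not independent of being high there. LTBP4, which binds latent TGF-beta and helps assemble elastic fibres, was at 1.84 and 1.06 CPM in GFP cells, 6.27 and 15.7 CPM in the constitutive cells, 1.00 and 0.68 CPM uninduced, and 6.04 and 4.52 CPM induced. The rise of 2.84 ± 0.43 averaged over both systems (adjusted p = 0.00337) held with each library left out in turn. It was 2.996 ± 0.61 constitutive (adjusted p = 0.014; 0.137 without GFP replicate 2 and 0.0667 without DNp63 replicate 2). The induced value was 2.69 ± 0.60 (adjusted p = 0.184 in the shared fit, 0.0386 with DESeq2, 0.04 without DNp63 replicate 1, and 0.00189 in the fit on the inducible libraries alone). LTBP2, a matrix relative that binds little or no latent TGF-beta, was at 2.21 and 0.423 CPM in GFP cells, 24.8 and 6.00 CPM in the constitutive cells, 1.61 and 1.65 CPM uninduced, and 3.82 and 2.36 CPM induced. LTBP2 rose by 3.71 ± 0.84 in constitutive cells (adjusted p = 0.0227), and not without GFP replicate 2 (0.186), DNp63 replicate 1 (0.11) or induced replicate 1 (0.0503). Its averaged rise of 2.32 ± 0.57 (adjusted p = 0.0394) was lost without GFP replicate 2, DNp63 replicate 1 or any inducible library (0.0863 to 0.207), and the induced value was 0.94 ± 0.75 (0.973).

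LTBP1, the main partner of latent TGF-beta in many cells, was at 92.6 and 47.4 CPM in GFP cells, 113 and 86.1 CPM in the constitutive cells, 83.4 and 97.4 CPM uninduced, and 93.0 and 79.5 CPM induced. Its groups overlapped in both systems, with an averaged value of 0.23 (adjusted p = 0.62) and a constitutive one of 0.52 (0.328; 0.0357 without GFP replicate 1, at 1.06). LTBP3 was higher without overlap in both systems, at 64.5 and 35.1 CPM in GFP cells, 66.4 and 66.2 CPM in the constitutive cells, 43.0 and 38.9 CPM uninduced, and 67.0 and 49.7 CPM induced. The averaged value of LTBP3 was 0.47 ± 0.20 (adjusted p = 0.223; 0.0318 without GFP replicate 1). THBS1, the matrix protein thrombospondin 1, which can release TGF-beta from its latent complex, was at 3.32 and 49.1 CPM in GFP cells, 1.14 and 5.03 CPM in the constitutive cells, 20.3 and 21.0 CPM uninduced, and 3.08 and 1.18 CPM induced. The induced libraries were thus far below the uninduced ones, with a ratio of means of 0.103, while the constitutive groups overlapped, GFP replicate 1 being low. In the shared fit THBS1 fell by 3.11 on the log2 scale averaged over both systems (SE 0.66; adjusted p = 0.0208). The fall was 1.60 and not called without GFP replicate 2 (0.165), nor was it called without any inducible library (0.0552 to 0.121). The constitutive value of −3.03 (adjusted p = 0.0739; 0.00161 with the replicate block) was −0.023 without GFP replicate 2 and −3.88 without GFP replicate 1 (0.00341). For induced cells it was −3.18 ± 0.93, with an adjusted p of 0.343 in the shared fit, 0.00208 with the block, 0.0378 without GFP replicate 1, and 4.27e-08 in the fit on the inducible libraries alone.

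Of the 6 target genes, 1 rose and 2 fell in the averaged comparison. Among the ID genes, which encode helix-loop-helix proteins that trap other such factors and cannot bind DNA, ID2 rose and ID3 fell. The stretches around the starts of ID1, ID2, ID3 and of ATOH8, whose levels went different ways, are printed from RefSeq (build GRCh38.p14, 5′ to 3′, 250 bases before to 50 after the start). The counts were made on another build, and the sequences were matched by symbol. Capitals mark CAGAC or its reverse complement GTCTG, a SMAD-binding motif, GGCGCC, a GC-rich SMAD motif, and CANNTG, the E-box of helix-loop-helix factors, all searched on both strands.
ID1 (chr20:31605039-31605338, plus strand): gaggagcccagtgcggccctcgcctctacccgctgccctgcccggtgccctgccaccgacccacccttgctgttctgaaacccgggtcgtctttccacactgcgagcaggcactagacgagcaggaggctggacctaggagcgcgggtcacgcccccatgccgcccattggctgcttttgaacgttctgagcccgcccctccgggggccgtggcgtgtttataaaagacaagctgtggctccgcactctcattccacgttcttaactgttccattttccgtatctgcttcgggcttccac
ID2 (chr2:8681806-8682105, plus strand): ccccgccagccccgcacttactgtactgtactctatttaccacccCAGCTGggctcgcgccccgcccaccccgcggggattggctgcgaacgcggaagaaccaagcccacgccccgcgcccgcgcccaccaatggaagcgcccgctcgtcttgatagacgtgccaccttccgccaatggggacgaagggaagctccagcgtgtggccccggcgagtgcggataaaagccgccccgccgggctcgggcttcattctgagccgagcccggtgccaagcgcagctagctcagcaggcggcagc
ID3 (chr1:23559452-23559751, minus strand): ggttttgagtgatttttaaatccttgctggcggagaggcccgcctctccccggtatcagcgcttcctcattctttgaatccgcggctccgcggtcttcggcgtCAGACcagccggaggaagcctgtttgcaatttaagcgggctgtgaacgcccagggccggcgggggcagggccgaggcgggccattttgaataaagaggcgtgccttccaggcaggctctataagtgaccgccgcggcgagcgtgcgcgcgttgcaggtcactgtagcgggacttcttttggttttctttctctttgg
ATOH8 (chr2:85753741-85754040, plus strand): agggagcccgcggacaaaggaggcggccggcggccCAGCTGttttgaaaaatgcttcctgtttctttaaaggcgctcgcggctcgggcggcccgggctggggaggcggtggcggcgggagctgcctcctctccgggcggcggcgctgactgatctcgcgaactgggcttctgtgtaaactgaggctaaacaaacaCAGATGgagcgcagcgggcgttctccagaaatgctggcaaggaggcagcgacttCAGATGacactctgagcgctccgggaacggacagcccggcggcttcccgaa
The ID1 stretch held none of the motifs, ID2 held 1 E-box at −205 from the start, ID3 held 1 CAGAC at −147, and ATOH8 held 3 E-boxes at −215, −55 and −1. The stretch of ID4, not printed, held both 1 CAGAC at −205 and 1 E-box at −21. Of 35116 promoters in the table, CAGAC was present in 45.3%, GGCGCC in 19.2% and CANNTG in 68.7%. In 73 promoters of 41 of the listed genes the shares were 49.3%, 28.8% and 61.6%, as a description. The p53-family motif, searched on both strands, was in 7 of those 73 (9.59%) and in 6.63% of all. The capitals of different motifs do not overlap, and the absence of a motif says only that its letters are not in the stretch.

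ID3 was at 553 and 681 CPM in GFP cells, 120.5 and 167 CPM in the constitutive cells, 489 and 436 CPM uninduced, and 331 and 374 CPM induced. Both DNp63 groups lay below their controls without overlap, and the constitutive libraries lay far below all the others. The constitutive log2 fold change was −2.098 ± 0.22 (adjusted p = 0.000345), and it was called with each library left out in turn and in every other fit tried. The averaged log2 fold change of −1.25 ± 0.15 (adjusted p = 0.000798) was also called in each of these. The induced value was −0.39 ± 0.21 (adjusted p = 0.922 in the shared fit and 0.0121 in the fit on the inducible libraries alone). The difference between systems (induced minus constitutive), 1.71 ± 0.30, passed with an adjusted p of 0.0374, where 0.545% of all tested genes did (0.293% higher and 0.252% lower). It did not pass without GFP replicate 2 (0.0807) or any of the 4 inducible libraries (0.211 to 0.287).

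ID2 was at 77.8 and 111 CPM in GFP cells, 178 and 234 CPM in the constitutive cells, 118 and 118 CPM uninduced, and 229 and 221 CPM induced. The levels with DNp63 were close to each other in both systems, at 206 ± 39.4 CPM (SD, n = 2) and 225 ± 5.51 CPM. The averaged ID2 rise was 1.03 ± 0.15 (log2; adjusted p = 0.00321) and the constitutive one 1.12 ± 0.22 (adjusted p = 0.0113), calls that held with each library left out in turn. The constitutive rise was not called in the fit on the constitutive libraries alone (adjusted p = 0.117). The induced value of 0.93 ± 0.22 had an adjusted p of 0.193 in the shared fit, 0.0432 and 0.0488 without DNp63 replicate 1 or 2, 0.0215 with DESeq2, 0.0483 with the block and 2.54e-07 in the fit on the inducible libraries alone. The difference between systems was −0.19 ± 0.31 (adjusted p = 0.866).

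ID1 was at 398 and 435 CPM in GFP cells, 347 and 269 CPM in the constitutive cells, 332 and 294 CPM uninduced, and 463 and 381 CPM induced. It thus lay lower with constitutive and higher with induced DNp63, without overlap in either system. Neither value passed in the shared fit, at −0.44 ± 0.20 (adjusted p = 0.218) and 0.43 ± 0.20 (0.825), nor did their difference of 0.87 ± 0.28 (0.241). The induced value passed in the fit on the inducible libraries alone (0.00666). ID4 was at 29.1 and 28.1 CPM in GFP cells, 16.0 and 6.96 CPM in the constitutive cells, 16.9 and 14.5 CPM uninduced, and 15.5 and 10.6 CPM induced. The constitutive value was −1.35 ± 0.38 (adjusted p = 0.0522; 0.0204 with DESeq2, 0.0125 with the block and 0.00624 without DNp63 replicate 1) and the induced one −0.24 ± 0.36 (0.995). The averaged value was −0.80 (adjusted p = 0.113; 0.0321 with the block and 0.00983 without DNp63 replicate 1). Per kilobase of exon, ID3 exceeded ID1 with GFP (493 against 338 CPM per kb) and uninduced (370 against 254), while ID1 exceeded ID3 with constitutive DNp63 (250 against 115) and induced (342 against 282).

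ATOH8, a helix-loop-helix transcription factor gene that BMP signalling switches on in several tissues, lay lower with constitutive and higher with induced DNp63. It was at 20.3 and 16.3 CPM in GFP cells, 1.99 and 2.90 CPM in the constitutive cells, 14.7 and 12.04 CPM uninduced, and 23.4 and 23.0 CPM induced. The constitutive fall was 2.85 on the log2 scale (SE 0.34; adjusted p = 0.00076), and held with each library left out. The induced value was 0.81 ± 0.27, with an adjusted p of 0.486 in the shared fit and 0.0179 in the fit on the inducible libraries alone. The difference of 3.65 ± 0.44 passed (adjusted p = 0.0087), and was not called without any 1 of the 4 inducible libraries (0.0734 to 0.126), at values from 3.51 to 3.80. The averaged fall of 1.02 (SE 0.22; adjusted p = 0.0216), which joins these opposite values, was also lost without any of those libraries (0.0706 to 0.113).

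TGFBI, a matrix protein gene named for its induction by TGF-beta, was at 1377 and 680 CPM in GFP cells, 238 and 385 CPM in the constitutive cells, 795 and 804 CPM uninduced, and 891 and 967 CPM induced. The constitutive fall was 1.72 on the log2 scale (SE 0.32; adjusted p = 0.00868), and was called with each library left out. It was not called in the fit on the constitutive libraries alone (adjusted p = 0.0756). Induced cells differed from uninduced ones by 0.22 ± 0.31 (adjusted p = 0.995, and 0.168 in the fit on the inducible libraries alone). Their difference, 1.94 ± 0.44, missed the threshold (adjusted p = 0.1) and passed without GFP replicate 2 (0.0295), without DNp63 replicate 2 (0.0161), with DESeq2 (0.00128) and with the block (0.0445). The averaged value was −0.75 (adjusted p = 0.0784; 0.0114 with DESeq2, 0.015 without GFP replicate 2 and 0.0185 without DNp63 replicate 2).

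**Figure D3:**
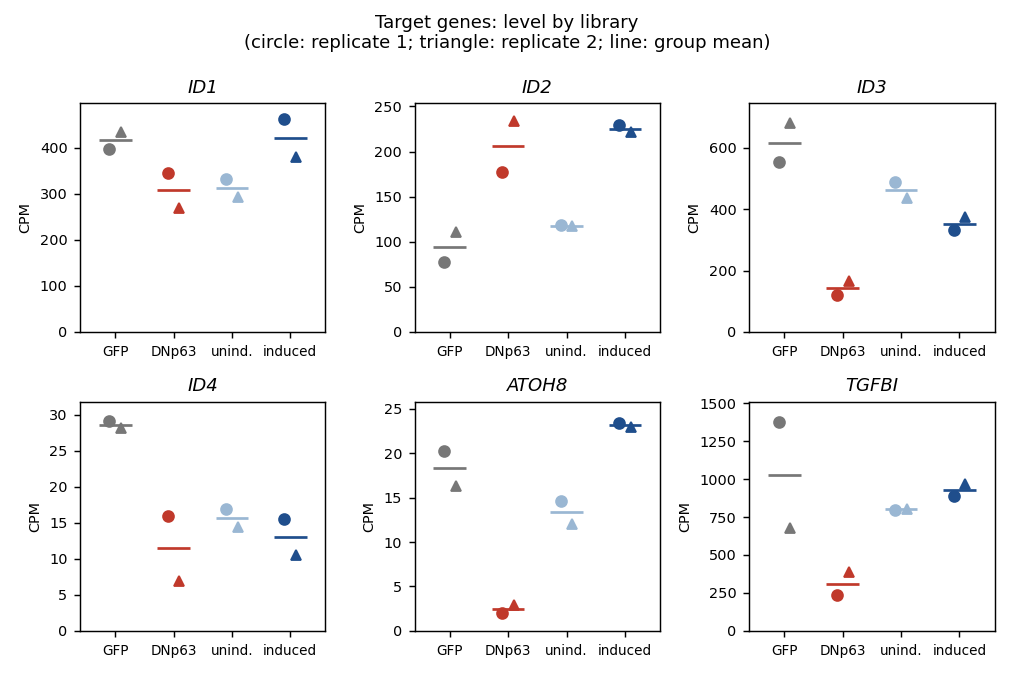
Level of the 6 target genes in each library, in CPM on linear axes from 0, with circles for replicate 1, triangles for replicate 2 and lines for the mean of 2 libraries. ID2 is higher and ID3 lower in the DNp63 libraries of both systems, while ATOH8 is at 1.99 and 2.90 CPM in the constitutive cells and at 23.4 and 23.0 CPM induced.

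In the constitutive system 17 of the 39 genes lay higher than the control libraries without overlap and 7 lower, beside 22.4% and 22.1% of all tested genes. In the inducible system 24 lay higher and 4 lower, beside 22.9% and 24%. The 17 include FST, LTBP2 and LTBP4, and the 24 include these and INHBB. All of them had needed the DNp63 libraries to enter the test, so both counts are raised by the filter. Of the 39, 14 lay higher without overlap in both systems, beside 7.84% of all tested genes, and 1, ID3, lay lower in both, beside 7.17%. The 14 were TGFB1, BMP4, BMP7, TGFBR2, ACVR1, SMAD2, SMAD7, SKIL, BAMBI, FST, LTBP2, LTBP3, LTBP4 and ID2, of which FST, LTBP2 and LTBP4 had needed the DNp63 libraries to enter the test. ATOH8, BMPR2, ID1 and TGFBI, 4 of 39, did not overlap in either system but in opposite directions, beside 6.8% of all tested genes. Between the control groups, uninduced against GFP cells, edgeR called none of the 39, beside 0.00813% of all tested genes, and DESeq2 none, of 57 genes it called in all. An unadjusted p under 0.05 was reached by 4 of the 39, beside 9.1% of all tested genes.

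Of 102 other genes of the pathways, 65 were tested, and 10 rose and 3 fell in the averaged comparison, beside 3.26% of all tested genes higher and 2.41% lower. None of the 65 was called in the shared fit of induced against uninduced cells, in the difference between systems or between the control groups. Transcriptional targets made up most of the rises, with 7 of 23 tested higher in the averaged comparison, beside the same 3.26%, and none lower. In the constitutive comparison 1 target, MYC, was called lower, at −0.91 ± 0.24 (adjusted p = 0.0435). These other genes were chosen with earlier results of these data known for some of them, so the shares are a description. FN1, the matrix protein fibronectin, rose by 1.61 ± 0.20 (log2; adjusted p = 0.00107) and SNAI2, a repressor of epithelial genes, by 2.72 ± 0.42 (0.00396), both called with each library left out. MMP2, a matrix protease gene, had 0.91 ± 0.16, and GATA2, a transcription factor gene, 0.98 ± 0.20. COL7A1, the collagen of anchoring fibrils, was at 18.2 and 17.8 CPM with constitutive DNp63 against 2.58 and 1.90 CPM in GFP cells, and at 1.73 and 1.37 CPM induced against 2.01 and 1.65 CPM uninduced. It reached the count minimum in 1 control library, so it needed the DNp63 libraries to enter the test. CDKN2B, a cell cycle inhibitor gene, had 0.80 ± 0.19 and JUNB, an AP-1 factor gene, 0.77 ± 0.18. Each of COL7A1, CDKN2B, JUNB, GATA2 and MMP2 lost its averaged call without at least 3 of the single libraries, always with uninduced replicates 1 or 2 among them (adjusted p of the lost calls from 0.0506 for MMP2 to 0.236 for CDKN2B).

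Of 22 intracellular regulators 2 rose and 1 fell, beside the same 3.26% and 2.41% of all tested genes. PMEPA1, which restrains TGF-beta signalling, had 0.72 ± 0.17 (adjusted p = 0.0343), lost without GFP replicate 2 or any inducible library (0.116 to 0.19). LDLRAD4, another such restraint, fell by 1.95 on the log2 scale (SE 0.37; adjusted p = 0.0124; 0.0692 to 0.079 without uninduced replicate 1 or induced replicate 1). Outside the cell, BGN, the proteoglycan biglycan, rose by 2.37 ± 0.42 (adjusted p = 0.00887; 0.0561 to 0.0591 without GFP replicate 2 or induced replicate 2). The BMP co-receptor gene RGMA was at 28.8 and 30.02 CPM in GFP cells, 7.12 and 8.71 CPM in the constitutive cells, 9.85 and 9.22 CPM uninduced, and 6.54 and 9.43 CPM induced. RGMA fell by 1.07 on the log2 scale in the averaged comparison (SE 0.21; adjusted p = 0.0129), lost without uninduced replicates 1 or 2 or induced replicate 1 (0.0682 to 0.0879). The ligand gene BMP3 had 19 counts in GFP cells and 0 in the constitutive cells, at least 7.39-fold lower. It reached the count minimum in the GFP libraries only, so its entry into the test depended on being high there, and its averaged call (adjusted p = 0.0368) was lost whichever library was left out (0.0652 to 0.184).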

How the data were processed

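Polyadenylated RNA of 8 LK2 libraries was sequenced from both ends, per the labels' protocols. The deposited table holds whole-number read counts per gene, not normalized. The submitters' processing notes name TopHat2 2.1, SAMtools, HTSeq and DESeq2 and the build hg19, without giving the step of each. The annotation version and strand setting are not stated in the sources used here. Counts of genes that overlap others could therefore be shared. Genes were filtered with edgeR 4.0.16 (filterByExpr, minimum count 10, R 4.3.3), TMM-scaled and fitted with 1 mean for each of 4 groups and a shared spread (quasi-likelihood, legacy estimates, 4 residual degrees of freedom). Tests were two-sided, with Benjamini-Hochberg adjustment over 12303 genes and a threshold of 0.05. CPM use scaled totals. Levels per kilobase divide by the merged exon length of GENCODE gene models of another build. Alternatives were RLE scaling, no filter, DESeq2 1.42.0, no legacy estimates, a replicate block, each system alone and leaving out each library. In the constitutive system the numbers pair libraries by vector, per the labels, and same-numbered libraries deviated together with r = 0.22 over genes. In the inducible system, with 1 vector and r = −0.03, they share only a number. The fit was tested on simulated data. The genes and lists were chosen with earlier results of these data known. Genes called in any contrast and the ID, SMAD6, SMAD7, TGFB and TGFBR genes were to be given by library. Other pathway genes were named if called in the averaged comparison, up to 12 by smallest adjusted p. The few other genes given by library were chosen after their values were seen.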

Additional observations from a re-analysis of the deposited data

Results flagged for a closer look

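ATOH8 and ID3 are listed because the effect of DNp63 differed between the systems by the test of the difference itself. For ATOH8 the induced effect minus the constitutive effect was 3.65 on the log2 scale, and for ID3 it was 1.71. The constitutive DNp63 libraries held 1845 and 3806 CPM of TP63 and the induced ones 412 and 421 CPM. Their controls were not alike in TP63, at 0.738 and 1.90 CPM with GFP and 12.7 and 14.8 CPM uninduced. The test between the control groups did not pass for TP63 in the shared fit (adjusted p = 0.165). The systems also differ in vector and in doxycycline, and the part of each in these differences cannot be told apart.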

How the results depend on the processing

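Among 22 called combinations of gene and contrast, 111 of 119 alternatives other than leave-outs kept the call, 8 lost it and none reversed. Of the 8, 7 were fits on the libraries of 1 system. RLE scaling kept every count of called genes within 1.5 times. Without the filter on low counts, the averaged comparison called 13 of the listed genes higher and 5 lower (8 and 3 with it), the constitutive one 12 and 5 (6 and 3), the induced one 3 and 1 (0 and 0), and the difference between systems 5 (2). Over all 18159 genes then tested, the averaged comparison called 1372, against 697 of 12303 with the filter. The constitutive one called 1791, against 1004, or 275 in the fit on its own libraries. The induced comparison called 242, against 35, or 771 in the fit on its own libraries. The difference between systems called 558, against 67. In the fit on 1 system, 0 were called higher in the constitutive comparison, and 13 higher and 2 lower in the induced one. DESeq2 called 2 higher in the induced comparison, beside 75 of all 12303 genes. The replicate block, within systems, called 5 lower in the constitutive comparison, beside 688 of all genes. In the induced comparison the block called 1 higher and 1 lower, beside 65 and 22 of all genes. No call among the 45 genes was lost under the block. Leaving out 1 library gave 2 to 10 higher and 1 to 4 lower in the averaged comparison, 4 to 7 and 3 to 5 in the constitutive one, 0 to 2 and 0 to 1 in the induced one, and 0 to 5 in the difference. Over all genes the averaged count then ran from 225 (without induced replicate 1) to 1113 (without DNp63 replicate 2). Signs turned, in values that were not called, for TGFB2 (−0.18 without GFP replicate 1) and, without DNp63 replicate 1, for SMAD9 (0.31) and FSTL1 (−0.083). Without DNp63 replicate 2, SMAD9 (−1.32) and FSTL1 (1.30) kept their sign and passed. In the constitutive and induced comparisons and in the difference, counts over all genes also changed with the library left out. In the induced comparison and the difference they were lowest without an inducible library. Changes in the number of calls were thus not particular to the listed genes. The causes of these changes in number, sign and call were not tested. With 2 libraries a group, and 3 counts standing for up to 1.11 CPM, changes in weakly expressed ligands and antagonists were hard to detect.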
